A study of Mus musculus with 12 samples.

Results

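The stroke response of wild-type (WT) microglia is described here as the difference between P2RY12+ microglia of the ipsilateral, ischemic hemisphere (IL) and those of the contralateral, non-lesion hemisphere (CL). The libraries were chosen by their column labels, 3 labelled WT and IL against 3 labelled WT and CL, which are 6 of the 12 libraries of the series. The other 6 come from mice lacking Nhe1 in microglia (cKO) and share the filter, the scaling and the estimate of the spread with the WT libraries, and their own stroke response is given at the end beside the WT values. Microglia are the resident macrophages of the brain. In the healthy brain they survey the tissue and express a homeostatic set of genes that includes P2ry12, Tmem119 and Cx3cr1. Around an infarct they engulf dying cells and myelin, degrade them in acidified lysosomes, and store or export the lipid and cholesterol taken up. In models of neurodegeneration a set of genes named disease-associated microglia genes accompanies this phagocytic state, with Apoe, Spp1, Gpnmb and Lgals3 among them.

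The study asked how deletion of Nhe1, which encodes a sodium-proton exchanger, changes microglia after stroke. WT mice carried Cx3cr1-CreER+/- with unfloxed Nhe1 (Nhe1+/+), cKO mice the same driver with Nhe1f/f. Mice of both genotypes, male or female by the study's methods, received tamoxifen at 75 mg/kg daily for 5 days at an age of 30 to 40 days, and at least 30 days passed before the left middle cerebral artery was occluded for 60 min. Hemispheres were taken 72 h later without meninges, and the cells were captured with magnetic beads against P2RY12. All WT libraries thus share the Cre driver, which leaves 1 working copy of Cx3cr1, the tamoxifen and the stroke. The CL hemisphere belongs to the same operated brains, and no sham or naive brain is among these samples. Blood-derived myeloid cells can also express Cx3cr1, and a bead capture on 1 surface protein does not by itself separate them from microglia. The study checked purity by CD11b on the captured cells and by marker genes. In its flow cytometry, brain macrophages were gated as CD11b+ and P2RY12-negative. The libraries of a group are called A, B and C after the number in their column names (the same letter stands for the same number in CL and IL), and 3 values in a row are always given in that order. The study describes 3 independent animals per group, but the labels do not tie a library to an animal.

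The WT CL libraries held 12647526, 5155202 and 2091512 read counts and the WT IL libraries 18425180, 25166928 and 23087202, so each IL library was deeper than each CL library. They did not detect genes in proportion to depth. A count was found for 25814, 39769 and 20559 genes in CL and for 38118, 43770 and 26614 in IL. Levels are given as CPM (read counts scaled to a common library size by TMM) and are compared within a gene, not between genes. Over the 35674 genes with enough counts to test, the root mean square log2 distance of CL A to the mean of the other CL libraries was 2.51, against 2.05 to the IL mean, and CL B lay at 2.42 and 1.86. By this measure both lay nearer to the IL mean than to the mean of the other CL libraries. The latter averages fewer libraries than the IL mean and includes CL C, the smallest library, which can lengthen that distance. A likeness of CL A and CL B to IL was therefore not shown. CL A also stood apart by Fn1, which encodes fibronectin (5976, 73.2 and 143 CPM in CL), and by the interferon-induced gene Ifit1 (161, 1.05 and 2.93 CPM in CL), both named after their values were seen.

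In IL, 192 genes were higher and 25 were lower than in CL (edgeR quasi-likelihood test, two-sided, adjusted p under 0.05 by Benjamini-Hochberg). These were 0.538% and 0.0701% of the genes tested. That fit took the libraries as unpaired, and with the column number as a replicate block 1 gene was called higher and 0 lower. Among the genes that rose were surface receptors for debris, lysosomal enzymes, lipid-droplet and cholesterol-export proteins, and matrix proteins and proteases. The log2 fold changes of the 192 had a median of 3.18 and a lowest value of 2.03, whereas the median over all tested genes was -0.31. 179 of the 192 and 19 of the 25 are protein coding. For 169 of the 192, every IL library lay above every CL library, a pattern that 10.3% of all tested genes showed. For 24 of the 25, every IL library lay below every CL library, as did 6.62% of all genes. The lowest adjusted p was 0.0153, and 6521 genes were at an unadjusted p under 0.05, 3398 of them higher and 3123 lower.

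The size of the response differed widely between the IL libraries, and its calls rested on library C. IL C was the highest IL library for 185 of the 192 genes and IL A the lowest for 187, and 181 of them were ordered A below B below C. Their median log2 level relative to the CL mean was 1.31, 2.56 and 3.87 in IL A, B and C (1 CPM added to both). Without IL C, 5 genes were called higher and 0 lower. Without IL A, 977 and 191 were called, with all 192 among the former. DESeq2 called 1144 of 49642 genes higher and 2509 lower, and its counts for the lists below belong beside these. Msr1, Gpnmb, Cd300lf, Ifi202b and Ifitm1 were the only genes that remained called without each WT library in turn. No gene was called when voom with quality weights was used or when the 6 WT libraries were fitted alone (25400 genes tested), with 5278 and 2684 genes at an unadjusted p under 0.05. Each number in the column names occurs once in CL and once in IL, but no source says that it marks an animal. With the number as a replicate block, as for libraries paired by animal, 1 gene was called higher and 0 lower (edgeR, 4040 at an unadjusted p under 0.05).

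**Figure D1:**
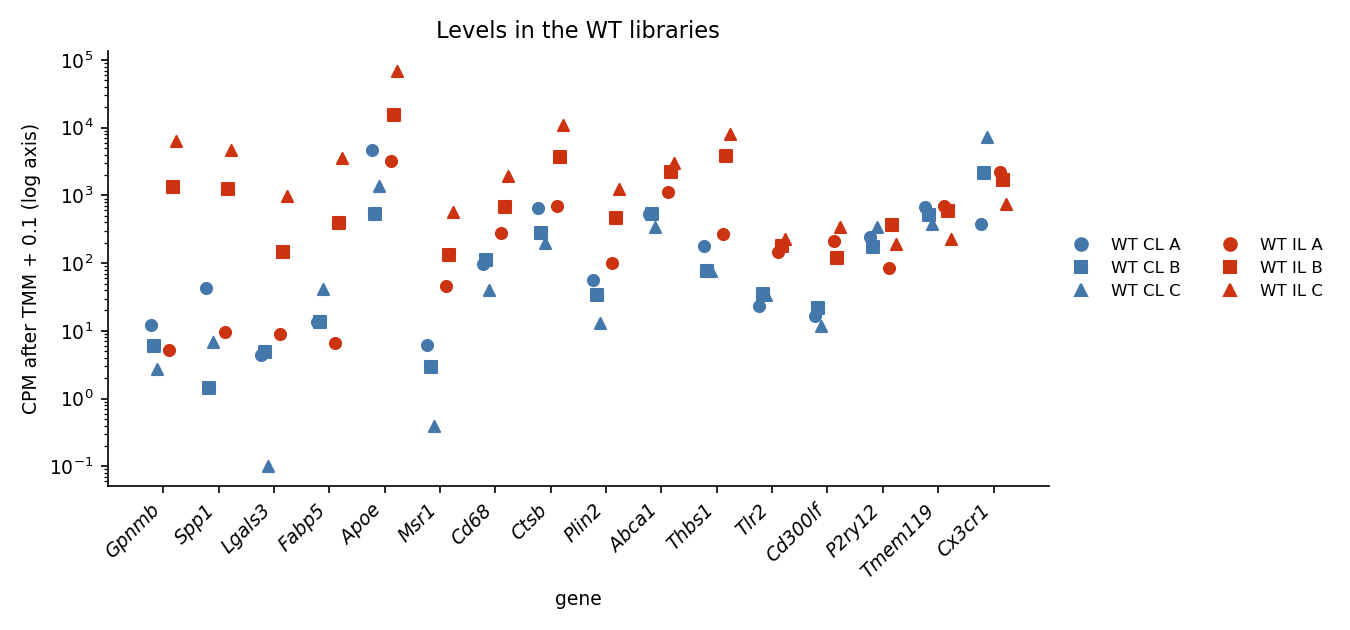
CPM after TMM scaling, with 0.1 added, on a log axis for 16 genes in each WT library. Blue marks are CL and red marks IL, and circles, squares and triangles are libraries A, B and C. For Gpnmb, Spp1 and Fabp5, IL B and IL C lay far above CL while IL A lay within or below the CL libraries, whereas for Tlr2 and Cd300lf all 3 IL libraries lay above CL, and for P2ry12, Tmem119 and Cx3cr1 the groups overlapped.

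Disease-associated microglia genes rose in part, among them Gpnmb, Spp1, Lgals3 and Apoe. Of the tested members, 12 of 29 were called higher and none lower, all 29 had a positive log2 fold change, and their median was 2.39. Among the 9977 protein-coding genes of at least 10 CPM, 1.66% were called higher and the median was 0.53. For 12 of the 29 every IL library lay above every CL library, as for 10.3% of all tested genes. Gpnmb, a transmembrane glycoprotein of phagocytes (chromosome 6, 49036546 to 49070929 in GRCm38), stood at 12.2, 5.85 and 2.64 CPM in CL and 5.13, 1339 and 6302 CPM in IL. IL B and IL C lay far above every CL library, and IL A lay within the CL range. Its log2 fold change was 8.49 (standard error, SE, 1.36, adjusted p = 0.0156) and 6.58 without IL C. In the brackets that follow, the first value is the log2 fold change ± SE. Spp1, which encodes the secreted phosphoprotein osteopontin (chromosome 5, 104435118 to 104441050), stood at 42.7, 1.35 and 6.75 CPM in CL and 9.38, 1255 and 4686 CPM in IL, with IL A below CL A (6.85 ± 1.36, adjusted p = 0.036). It was called without IL A (7.43, adjusted p = 4.2e-05) and not without IL C (5.21, adjusted p = 0.16).

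Lgals3 encodes galectin-3, a lectin that binds damaged lysosomes (chromosome 14, 47367751 to 47386160). It stood at 4.33, 4.798 and 0 CPM in CL and 8.97, 148 and 987 CPM in IL, so that all IL libraries exceeded all CL libraries although IL A did so by a small margin (6.88 ± 1.19, adjusted p = 0.0197). Apoe, the main lipid carrier of the brain (chromosome 7, 19696109 to 19699188), stood at 4668, 528 and 1401 CPM in CL and 3227, 15666 and 69915 CPM in IL. CL A exceeded IL A, and the rise rested on IL B and IL C (3.75 ± 0.87, adjusted p = 0.0487). Fabp5, a fatty acid-binding protein, stood at 13.5, 13.5 and 41.4 CPM in CL and 6.47, 395 and 3599.5 CPM in IL, where IL A was the lowest of all 6 libraries (5.88 ± 1.21, adjusted p = 0.036). Itgax, the integrin CD11c, rose by 2.81 on the log2 scale, from 9.32, 31.2 and 6.75 CPM in CL to 29.3, 81.8 and 222 CPM in IL, with CL B just above IL A. Tyrobp, the signaling adaptor of Trem2, stood at 38.2, 59.98 and 23.5 CPM in CL and 105, 126 and 505 CPM in IL without overlap (2.59 ± 0.57, adjusted p = 0.0417). Cd63, a tetraspanin of late endosomes, reached 168, 216 and 1193 CPM in IL against 60.1, 84.9 and 77.8 CPM in CL, and B2m, the light chain of MHC class I, 53.3, 395 and 1205 CPM against 85.3, 32.2 and 21.1 CPM. IL A lay above CL for Cd63 and below CL A for B2m. Trem2, the lipid-sensing receptor of this state, did not pass the test, though its 138, 211 and 261 CPM in IL lay above its 98.4, 76.8 and 93.9 CPM in CL in every library (1.18 ± 0.45, adjusted p = 0.179). With IL C left out 1 member of the list was called, and with IL A left out 21 were. Over all tested genes these fits called 5 of 39492 and 977 of 39646 higher.

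Homeostatic genes were not called with all libraries in the fit. Among protein-coding genes of at least 10 CPM 1.66% were called higher and 0.18% lower, so 0 calls do not set this list apart. With edgeR none of the 25 tested members passed in either direction, 3 were at an unadjusted p under 0.05, all higher, DESeq2 called none, and 1 was called higher without CL C. The fit without CL C called 390 of 39716 tested genes higher. The median was 0.29, which lies below that of protein-coding genes of at least 10 CPM and turned negative when only total counts (-0.19) or TMM from genes of at least 50 CPM (-0.43) set the scale. It ranged from 0.09 without IL B to 0.92 without CL A, where 22 of the 25 were positive. P2ry12, the purinergic receptor on which the cells were captured, stood at 245, 175 and 343 CPM in CL and 84.9, 365 and 192 CPM in IL (-0.25 ± 0.56, adjusted p = 0.85). The highest and the lowest value both came from IL. Tmem119, a microglial surface protein, stood at 670.5, 509 and 375 CPM in CL and 699, 593 and 228 CPM in IL (-0.03 ± 0.47, adjusted p = 0.979). Cx3cr1, the fractalkine receptor and the site of the Cre insertion, stood at 381, 2118 and 7239.9 CPM in CL and 2189.9, 1707 and 745 CPM in IL, and the CL libraries alone spanned a wider range than the difference between the groups (-1.07 ± 0.704, adjusted p = 0.426). The summed level of the list was 13950.0, 12671 and 13655 CPM in CL and 15205, 17668 and 10181 CPM in IL, so the captured cells carried microglial transcripts in all 6 libraries.

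Proximal promoters are shown for 4 genes called higher, chosen after their values were seen because each holds a match to 1 of the motifs searched and because they cover the surface, secreted, lysosomal and complement-receptor products of the response. Each runs from 250 bases before to 50 after a RefSeq transcription start (GRCm38.p6), 5′ to 3′ on the gene's strand, with the match in capitals.
Gpnmb, chr6:49036268-49036567, plus strand: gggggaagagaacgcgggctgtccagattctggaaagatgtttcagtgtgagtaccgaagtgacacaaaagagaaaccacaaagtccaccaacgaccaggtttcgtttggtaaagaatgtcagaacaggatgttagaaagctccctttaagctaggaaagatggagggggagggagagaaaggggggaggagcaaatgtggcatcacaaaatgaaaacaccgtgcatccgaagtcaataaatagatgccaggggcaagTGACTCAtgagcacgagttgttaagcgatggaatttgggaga
Spp1, chr5:104434861-104435160, plus strand: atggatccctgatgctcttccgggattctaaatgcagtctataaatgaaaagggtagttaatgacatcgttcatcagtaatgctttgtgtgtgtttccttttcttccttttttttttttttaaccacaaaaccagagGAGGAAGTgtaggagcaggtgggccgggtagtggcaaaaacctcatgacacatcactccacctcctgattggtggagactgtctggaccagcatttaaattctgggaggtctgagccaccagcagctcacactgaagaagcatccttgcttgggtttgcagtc
Cd68, chr11:69666121-69666420, minus strand: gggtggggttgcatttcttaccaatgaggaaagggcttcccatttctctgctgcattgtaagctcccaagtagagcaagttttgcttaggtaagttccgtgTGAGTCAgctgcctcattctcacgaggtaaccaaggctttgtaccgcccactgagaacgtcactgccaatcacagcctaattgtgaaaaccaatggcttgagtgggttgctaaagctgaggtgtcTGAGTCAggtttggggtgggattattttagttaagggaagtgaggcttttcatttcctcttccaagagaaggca
C3ar1, chr6:122856108-122856407, minus strand: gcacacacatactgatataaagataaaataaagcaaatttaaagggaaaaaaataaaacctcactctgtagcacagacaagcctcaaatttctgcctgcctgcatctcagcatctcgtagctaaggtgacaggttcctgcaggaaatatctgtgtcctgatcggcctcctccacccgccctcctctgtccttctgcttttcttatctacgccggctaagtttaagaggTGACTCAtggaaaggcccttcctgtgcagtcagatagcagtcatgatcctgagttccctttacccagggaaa
The capitals in Gpnmb, Cd68 and C3ar1 spell the AP-1 motif TGAGTCA or its reverse complement, and Cd68 holds it at 2 places. The capitals in Spp1 spell GAGGAAGT, the motif of PU.1, a factor that macrophages and microglia require. Both strands were searched for these motifs and for the lysosomal CLEAR motif TCACGTGA, which is its own reverse complement, and the antioxidant response motif TGACNNNGC, which can overlap AP-1. Promoters were listed for 139 of the 179 protein-coding genes called higher and for 15380 of the 20235 tested. The AP-1 letters were found in 5.76% of the former and 4.4% of the latter, the PU.1 letters in 7.19% and 2.83%, CLEAR in 2.16% and 1.34%, and the antioxidant motif in 14.4% and 13.6%. These shares are descriptions, and a match is not shown to be a bound site.

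Receptors with which phagocytes take up debris rose as single genes of several families. Msr1, the class A scavenger receptor for modified lipoproteins and debris (chromosome 8, 39581685 to 39642673), had the lowest p of all genes. It stood at 6.04, 2.85 and 0.293 CPM in CL and 45.2, 133 and 577 CPM in IL, and the lowest IL library lay above the highest CL library by a wide margin (6.26 ± 0.900, adjusted p = 0.0153). It was the 1 member called of the 24 scavenger and engulfment receptors, whose median was 0.99. Among protein-coding genes of at least 10 CPM 1.66% were called higher. C3ar1, the receptor of the complement fragment C3a, stood at 34.2, 48.6 and 20.5 CPM in CL and 92.4, 272.5 and 773 CPM in IL without overlap (3.46 ± 0.64, adjusted p = 0.026). Fcgr2b, the inhibitory receptor for IgG, stood at 38.5, 20.5 and 22.3 CPM in CL and 37.5, 149.6 and 438 CPM in IL, IL A just under CL A. Fcer1g, the signaling chain shared by activating Fc receptors, stood at 50.05, 61.2 and 47.8 CPM in CL and 99.6, 205 and 770.4 CPM in IL without overlap. The log2 fold changes of these last 2 were 2.94 and 2.76 (adjusted p = 0.0376 and 0.038).

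Cd300lf, a receptor that binds phosphatidylserine and other lipids of dying cells (chromosome 11, 115116214 to 115133992), was the gene with the evenest response among those that held without each library. It stood at 16.6, 21.4 and 11.7 CPM in CL and 213, 120.0 and 342 CPM in IL, and IL A was higher than IL B (3.76 ± 0.59, adjusted p = 0.0156). Its activating relative Cd300lb stood at 1.19, 2.85 and 1.17 CPM in CL and 10.8, 19.4 and 54.3 CPM in IL, and Havcr2, the checkpoint receptor TIM-3, at 61.5, 62.7 and 26.7 CPM in CL and 154, 273 and 251.2 CPM in IL, both without overlap. They rose by 4.004 and 2.17 on the log2 scale. Members of the Ms4a family of membrane-spanning proteins resemble each other in sequence, so that reads may be split among them. Of its 14 members 4 were called higher, with a family median of 2.69. The share called higher was 1.66% among protein-coding genes of at least 10 CPM. Ms4a6c stood at 0, 3.75 and 0.88 CPM in CL and 5.36, 20.2 and 161 CPM in IL, Ms4a6d at 6.56, 2.099 and 9.39 CPM in CL and 10.6, 36.6 and 219 CPM in IL and Ms4a6b at 2.83, 4.798 and 0 CPM in CL and 10.8, 21.2 and 69.5 CPM in IL. Ms4a4c had no count in CL and stood at 0.874, 5.24 and 18.6 CPM in IL. Taken over the libraries together that is at least 60.7-fold higher, with 3 counts over the CL libraries as the floor.

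Genes of the digestive compartment lay higher as a group. 8 of 32 lysosomal hydrolases and membrane proteins were called higher, beside 1.66% of protein-coding genes of at least 10 CPM. Of the 32, 31 had a positive log2 fold change, and for 20 every IL library lay above every CL library (10.3% of all genes). The median was 2.07. Cd68, a lysosomal membrane glycoprotein of phagocytes (chromosome 11, 69664213 to 69666153), stood at 96.4, 111 and 39.9 CPM in CL and 277.9, 667 and 1909 CPM in IL (3.52 ± 0.62, adjusted p = 0.0197). The lowest IL value lay well above the highest CL value. For Ctsb, the cysteine protease cathepsin B (chromosome 14, 63122462 to 63145923), IL A barely exceeded CL A, with 645, 275 and 199.8 CPM in CL and 693, 3754 and 10878 CPM in IL (3.77 ± 0.72, adjusted p = 0.0314). Gusb, which removes glucuronic acid from glycosaminoglycans, stood at 46.6, 59.7 and 31.98 CPM in CL and 127, 249 and 391 CPM in IL, and Lamp2, a membrane protein needed for autophagosome fusion, at 46.4, 66.3 and 31.98 CPM in CL and 109, 252 and 716 CPM in IL. Their log2 fold changes were 2.47 and 2.89. Ctsc, which activates serine proteases by trimming them, reached 171, 336 and 621 CPM against 76.6, 67.9 and 17.9 CPM in CL. Gla, the alpha-galactosidase that degrades globosides, reached 25.1, 53.7 and 120.3 CPM against 7.09, 7.197 and 0 CPM, and cathepsin L (Ctsl) 208.1, 359 and 741 CPM against 127, 93.3 and 28.8 CPM. Without IL C none of the list was called, beside 5 of 39492 tested genes called higher. Without IL A 24 were, beside 977 of 39646.

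The vacuolar proton pump acidifies lysosomes. All 16 of its tested subunits had a positive log2 fold change (median 1.98). For 13 of them every IL library lay above every CL library, as for 10.3% of all genes. Among protein-coding genes of at least 10 CPM 1.66% were called higher, and among the subunits 2 were. These were Atp6v1a, the catalytic subunit, at 49.4, 35.98 and 29.6 CPM in CL and 84.02, 143 and 309 CPM in IL (2.22 ± 0.501, adjusted p = 0.0462), and the accessory subunit Atp6ap2 at 6.94, 17.4 and 7.33 CPM in CL and 23.9, 57.8 and 196 CPM in IL (3.13 ± 0.67, adjusted p = 0.0378). Neither was called without IL C, and 11 subunits were called without IL A. The fit without IL C called 5 of 39492 tested genes higher, and that without IL A 977 of 39646.

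**Figure D2:**
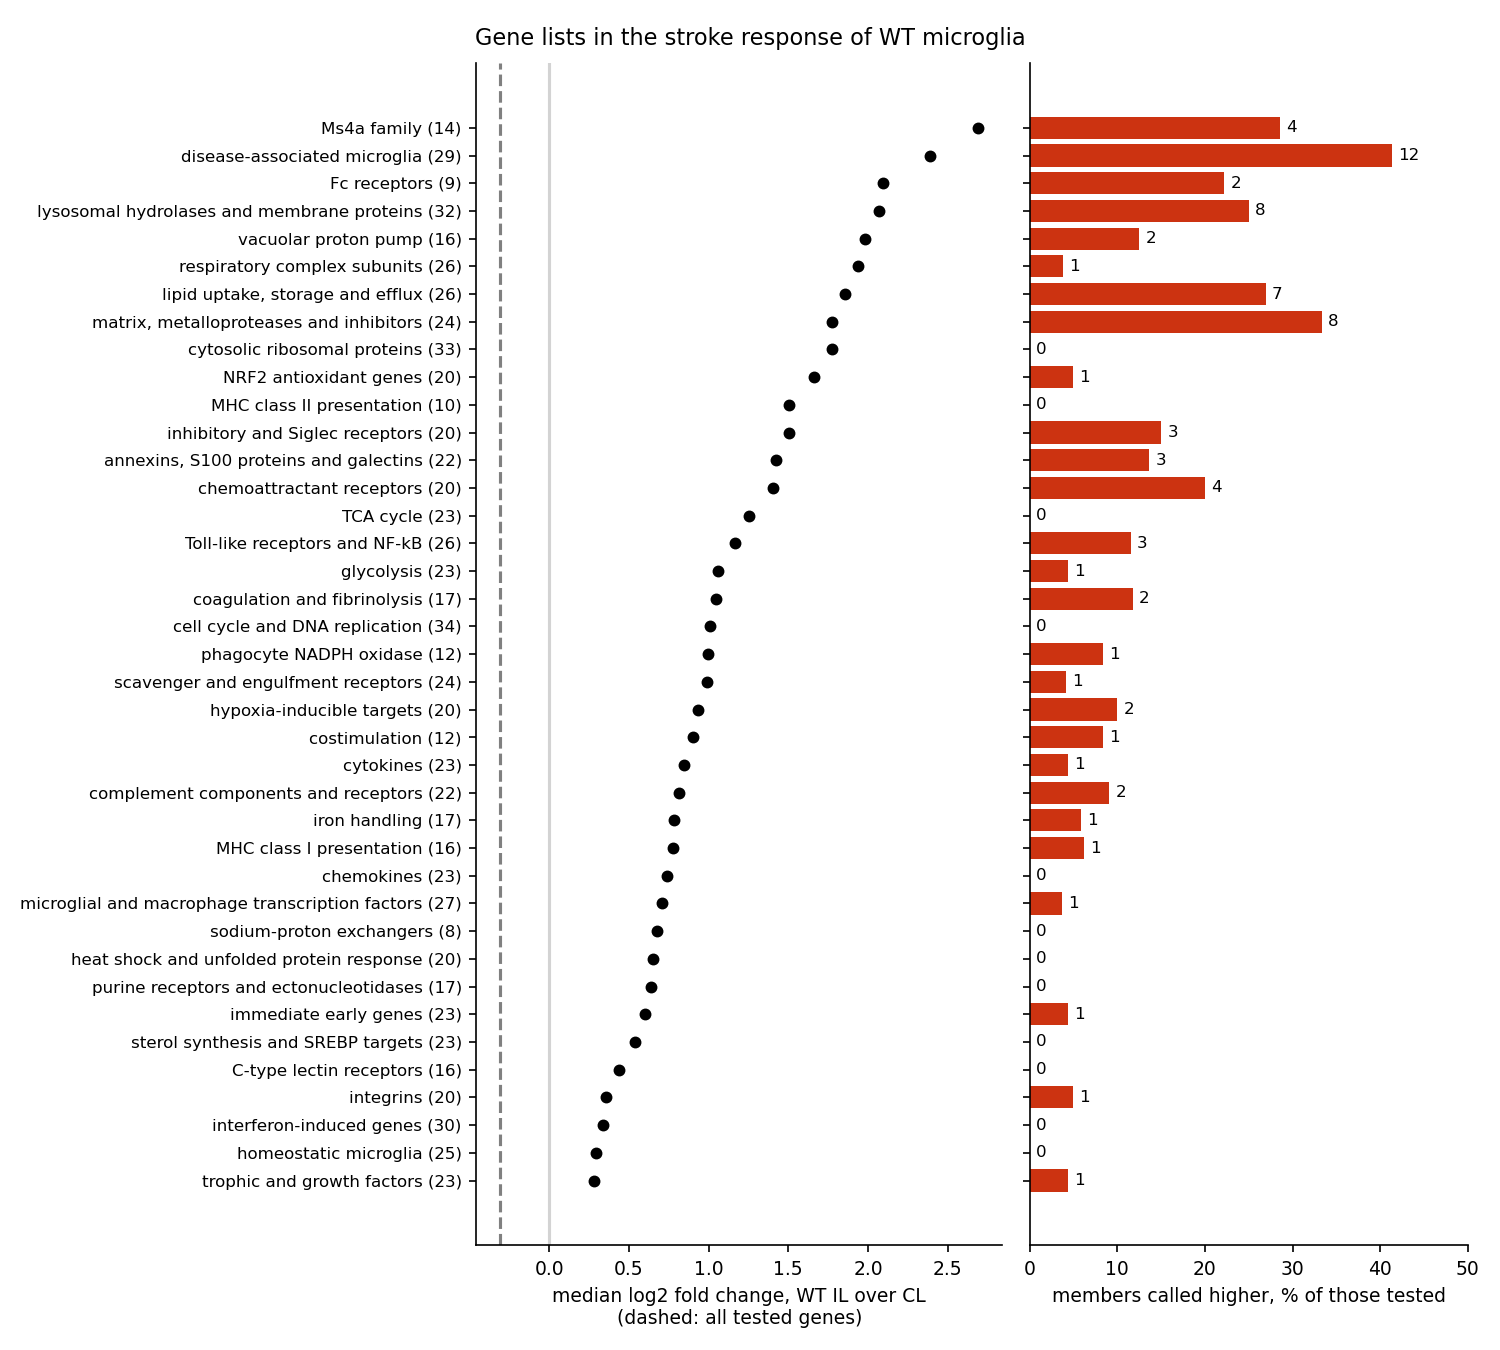
Left, median log2 fold change (WT IL over CL) of the tested members of 39 gene lists, number tested in brackets, with the median of all tested genes, -0.31, as the dashed line. Right, percent of tested members called higher, with their number; disease-associated microglia genes lead with 12, followed by lysosomal and matrix genes with 8 each, and no list had a member called lower.

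All 39 lists other than cell type markers had a median above 0, and 34 of them lay above the median of protein-coding genes of at least 10 CPM, so a positive median alone does not set a list apart. The number above 0 depended on the scale, with 39 under RLE, 34 under total counts and 25 under TMM from genes of at least 50 CPM, where the median of all genes moved to -1.05. The disease-associated (1.68), lysosomal (1.38), proton pump (1.21), lipid (1.10) and matrix (0.91) medians stayed positive there. In 27 at least 1 member was called higher, and in none was a member called lower, as the plot of list medians and called members shows.

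Lipid handling genes that rose included those of the droplet coat, cholesterol storage and cholesterol export. Of the tested members, 7 of 26 were called higher (median 1.85), beside 1.66% of protein-coding genes of at least 10 CPM. Without IL C 0 were called higher, beside 5 of 39492 tested genes, and without IL A 11, beside 977 of 39646. Plin2, the coat protein of lipid droplets (chromosome 4, 86648386 to 86670060), stood at 56.8, 34.04 and 12.9 CPM in CL and 100.4, 468 and 1230.3 CPM in IL without overlap (4.11 ± 0.72, adjusted p = 0.0197). Soat1, which esterifies cholesterol for storage, stood at 59.1, 32.1 and 24.1 CPM in CL and 89.8, 216 and 813 CPM in IL (3.27 ± 0.64, adjusted p = 0.0358). Nceh1, which splits such esters and is no member of the list, stood at 19.5, 5.098 and 7.33 CPM in CL and 7.57, 77.2 and 415 CPM in IL, with CL A above IL A. Abca1 exports cholesterol to lipid-poor apolipoproteins (chromosome 4, 53030787 to 53159895). It stood at 525, 524 and 347 CPM in CL and 1139, 2235 and 3008 CPM in IL, every IL library lying well above the highest CL library (2.19 ± 0.47, adjusted p = 0.0378). Abcg1, its partner that loads mature particles, stood at 77.3, 66.7 and 12.03 CPM in CL and 147, 255 and 442 CPM in IL (2.43 ± 0.57, adjusted p = 0.0487). Apoc1, an apolipoprotein next to Apoe in the genome, was at 0, 0.3 and 0 CPM in CL and 2.45, 11.5 and 58.6 CPM in IL. Pla2g7, a secreted phospholipase that inactivates platelet-activating factor, stood at 9.55, 4.798 and 0.293 CPM in CL and 16.4, 226 and 1307 CPM in IL (6.65 ± 1.11, adjusted p = 0.0191). Of 23 sterol synthesis genes edgeR called 0 and DESeq2 2. With edgeR 5 were higher at an unadjusted p under 0.05, and the median was 0.54. Protein-coding genes of at least 10 CPM had 1.66% called higher and a median of 0.53, so the sterol list lay near them. Whether the lists differ from each other was not tested.

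Matrix proteins, proteases and adhesion receptors followed. 8 of 24 tested members were called higher (median 1.78), beside 1.66% of protein-coding genes of at least 10 CPM. Thbs1, the secreted matrix glycoprotein thrombospondin-1 (chromosome 2, 118111876 to 118127133), stood at 178, 77.5 and 75.99 CPM in CL and 271, 3761 and 8132 CPM in IL. IL B and IL C lay far above every CL library and IL A only slightly above CL A (5.19 ± 0.88, adjusted p = 0.0196). Tgfbi, a matrix protein induced by TGF-beta, stood at 99.7, 37.6 and 18.2 CPM in CL and 103, 708 and 1812 CPM in IL (4.07 ± 0.78, adjusted p = 0.0318), and the membrane protease Adam8 at 27.3, 18.7 and 2.05 CPM in CL and 54.2, 230.3 and 564 CPM in IL (4.12 ± 0.77, adjusted p = 0.0299). Cd44, the hyaluronan receptor, stood at 68.2, 40.3 and 29.6 CPM in CL and 59.4, 431 and 773 CPM in IL, with IL A below CL A. Mmp14, a membrane-bound metalloprotease, stood at 71.8, 46.8 and 37.8 CPM in CL and 119, 271 and 470.1 CPM in IL, and the metalloprotease Adam9 at 46.9, 33.3 and 41.4 CPM in CL and 79.2, 159.8 and 387 CPM in IL, both without overlap. Emilin2, an elastin-associated glycoprotein, reached 76.9, 319 and 685 CPM in IL against 71.9, 46.5 and 39.3 CPM. Among coagulation genes, Plaur, the receptor that focuses urokinase on the cell surface, stood at 43.3, 26.2 and 12.3 CPM in CL and 131, 139 and 228 CPM in IL (2.595 ± 0.52, adjusted p = 0.036), and F10, coagulation factor X, at 3.95, 8.25 and 5.87 CPM in CL and 7.57, 45.9 and 84.96 CPM in IL. They were the 2 called of 17 tested, beside the same share of 1.66%.

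The pattern-recognition receptors that rose did so in every IL library, IL A included. All 26 genes of the Toll-like receptor and NF-kB list had a positive log2 fold change (median 1.16, 21 of them under TMM from genes of at least 50 CPM). Of these 3 were called, beside 1.66% of protein-coding genes of at least 10 CPM. Tlr2, the receptor for bacterial lipoproteins and damage signals (chromosome 3, 83836272 to 83841767), stood at 23.05, 34.6 and 34.03 CPM in CL and 147, 178 and 224 CPM in IL (2.58 ± 0.49, adjusted p = 0.0308). The lowest IL library lay far above the highest CL library and the IL libraries lay close together. Tlr13, a mouse receptor for bacterial ribosomal RNA, stood at 8.65, 11.8 and 6.45 CPM in CL and 27.2, 88.03 and 188 CPM in IL, and Tlr7, a receptor for single-stranded RNA, at 24.5, 19.5 and 17.3 CPM in CL and 49.1, 93.3 and 143 CPM in IL. Gpr84, a receptor for medium-chain fatty acids, is in no list and was chosen after its values were seen because IL A was its highest library (2.76, 4.198 and 2.35 CPM in CL and 31.6, 22.4 and 20.6 CPM in IL, 2.99 ± 0.66, adjusted p = 0.0406).

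Inflammatory cytokines and chemokines were mostly not called, and 16 of 23 in each list had a positive log2 fold change. Among protein-coding genes of at least 10 CPM 1.66% were called higher, so few calls do not set these lists apart. Tnfsf9, a costimulatory ligand of the TNF family, was the 1 cytokine of 23 called, at 2.24, 1.05 and 0 CPM in CL and 9.498, 14.2 and 32.8 CPM in IL (3.95 ± 0.85, adjusted p = 0.038). Tnf stood at 43.9, 34.5 and 47.8 CPM in CL and 239, 182 and 141 CPM in IL, with IL A highest and no overlap (2.16 ± 0.52, adjusted p = 0.0543). Il1b stood at 36.997, 10.6 and 34.9 CPM in CL and 62.1, 102 and 232 CPM in IL (2.26 ± 0.57, adjusted p = 0.0622), and the chemokine Ccl3 at 36.3, 83.1 and 23.2 CPM in CL and 213, 181 and 303 CPM in IL (2.29 ± 0.56, adjusted p = 0.057). All 3 missed the threshold narrowly and each was called in 7 alternative fits. No chemokine of 23 was called by edgeR, with 8 higher and 1 lower at an unadjusted p under 0.05, and DESeq2 called 5 higher and 1 lower. Of the receptors that read such signals, Cxcr4, the receptor of Cxcl12, stood at 0.97, 1.65 and 4.99 CPM in CL and 3.85, 83.2 and 227 CPM in IL (5.48 ± 1.003, adjusted p = 0.026), with CL C above IL A. Ccr1 stood at 3.58, 7.197 and 6.75 CPM in CL and 7.34, 41.5 and 155 CPM in IL, and Ccrl2, which presents chemerin, at 40.6, 28.2 and 12.03 CPM in CL and 71.1, 219 and 365 CPM in IL, both without overlap. With C3ar1 these made 4 of 20 chemoattractant receptors called, beside the same share of 1.66%.

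No gene of the interferon-induced list was called. Among protein-coding genes of at least 10 CPM 1.66% were called higher, so 0 calls do not set a list of this size apart. Of 30 tested with edgeR, 6 were higher and 2 lower at an unadjusted p under 0.05, DESeq2 called 4 higher, and the median was 0.34, negative under total counts (-0.19) and TMM from genes of at least 50 CPM (-0.43). Without CL A 8 were called higher, in a fit that called 966 of 39709 tested genes higher. Whether the high Ifit1 of CL A had a part in this was not tested. A pair of interferon-inducible genes outside the list had among the largest fold changes. Ifi202b, a DNA-binding member of a family with near-identical copies on chromosome 1, had no count in CL and 1.11, 8.14 and 41.1 CPM in IL, at least 121-fold higher over the libraries together. Ifitm1, a membrane protein that restricts virus entry, had 1 count in CL A and none in the others, and stood at 0.757, 11.7 and 40.02 CPM in IL. Of 10 genes of antigen presentation through MHC class II, edgeR called 0, which is near the share of 1.66%. With edgeR 6 were at an unadjusted p under 0.05, all higher, and DESeq2 called 4 (median 1.503). The invariant chain gene Cd74 gave 184, 137 and 161 CPM in CL and 250.7, 998 and 1404 CPM in IL (2.46 ± 0.58, adjusted p = 0.0508), and the class II chain H2-Aa gave 38.8, 27.9 and 14.4 CPM in CL and 29.2, 195 and 383 CPM in IL (2.898 ± 0.73, adjusted p = 0.0605).

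Genes of hypoxia, metabolism and redox defense gave few calls. Called were 2 of 20 hypoxia-inducible targets, 1 of 20 NRF2 antioxidant genes and 1 of 17 iron genes. Of the phagocyte NADPH oxidase genes 1 of 12 was called, and of the TCA cycle genes 0 of 23. Among protein-coding genes of at least 10 CPM 1.66% were called higher, so a single call does not set a list apart. At an unadjusted p under 0.05 (edgeR), 3398 of all 35674 tested genes were higher. Higher at that level were 13 of 23 TCA cycle genes and 19 of 26 respiratory subunits. So were 12 of 23 glycolytic genes and 6 of 17 iron genes, and these lists had none lower. Of the NRF2 genes 11 were higher and 1 lower, of the hypoxia-inducible targets 8 and 2, and of the oxidase genes 6 and 2. All 23 TCA cycle genes had a positive log2 fold change (median 1.25). Hif1a, the oxygen-regulated transcription factor, stood at 46.7, 44.98 and 3.52 CPM in CL and 90.9, 284 and 619.7 CPM in IL (3.38 ± 0.73, adjusted p = 0.038). Its target Vegfa, the vascular growth factor, stood at 37.97, 34.2 and 4.11 CPM in CL and 24.997, 388 and 701 CPM in IL, with IL A within the CL range (3.86 ± 0.83, adjusted p = 0.0378). Of 23 glycolytic genes 1 was called, Gapdh at 55.4, 78.6 and 37.3 CPM in CL and 148, 198 and 392 CPM in IL (2.11 ± 0.49, adjusted p = 0.0492). Of 26 respiratory subunits all had a positive log2 fold change (median 1.94) and 1 was called, Uqcrfs1, the iron-sulfur subunit of complex III, at 2.83, 1.65 and 0 CPM in CL and 6.99, 14.8 and 48.2 CPM in IL. Cybb, the catalytic subunit of the phagocyte NADPH oxidase, stood at 24.4, 10.05 and 31.98 CPM in CL and 25.9, 190.0 and 561 CPM in IL, and CL C exceeded IL A (3.55 ± 0.78, adjusted p = 0.0406). Fth1, the iron-storing heavy chain of ferritin, stood at 638, 250.6 and 304 CPM in CL and 540.5, 1439.5 and 8863 CPM in IL (3.18 ± 0.73, adjusted p = 0.0462), and without IL C its log2 fold change was 1.33. Txn1, thioredoxin, reached 2.797, 12.1 and 83.2 CPM against 2.09, 1.35 and 0 CPM, and Msrb1, which repairs oxidized methionine, 4.49, 27.4 and 106 CPM against 0.522, 1.65 and 0.293 CPM. Lgals1 and Lgals3bp, a galectin and a galectin-binding protein, rose by 4.34 and 2.597 on the log2 scale. Ier3, an early response gene that limits cell death, stood at 26.1, 23.8 and 6.75 CPM in CL and 74.6, 95.9 and 134 CPM in IL.

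The lists differed in how the IL libraries were ordered. In IL A, B and C the median log2 level relative to the CL mean was 0.55, 1.85 and 3.46 for disease-associated genes and 0.300, 1.32 and 2.101 for lipid genes. For the proton pump it was 1.11, 1.74 and 2.59, and for MHC class II genes 0.22, 1.77 and 1.93. For Toll-like receptors and NF-kB it was 1.26, 1.06 and 1.31, which is level across the libraries, and for immediate early genes 0.804, 0.42 and 0.44, with IL A highest. Cytosolic ribosomal protein genes, read as a sign of library composition, had -0.03, 1.19 and 2.84 and thus the same order as the disease-associated genes, while none of 33 was called by edgeR and 28 were higher at an unadjusted p under 0.05 (DESeq2 called 9). In 26 of the 39 lists the medians were ordered A below B below C. These are descriptions of 3 libraries, and the part that library composition had in the order was not tested. In bulk RNA a higher level can mean more cells in the state or more RNA per cell, which cannot be told apart here.

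**Figure D3:**
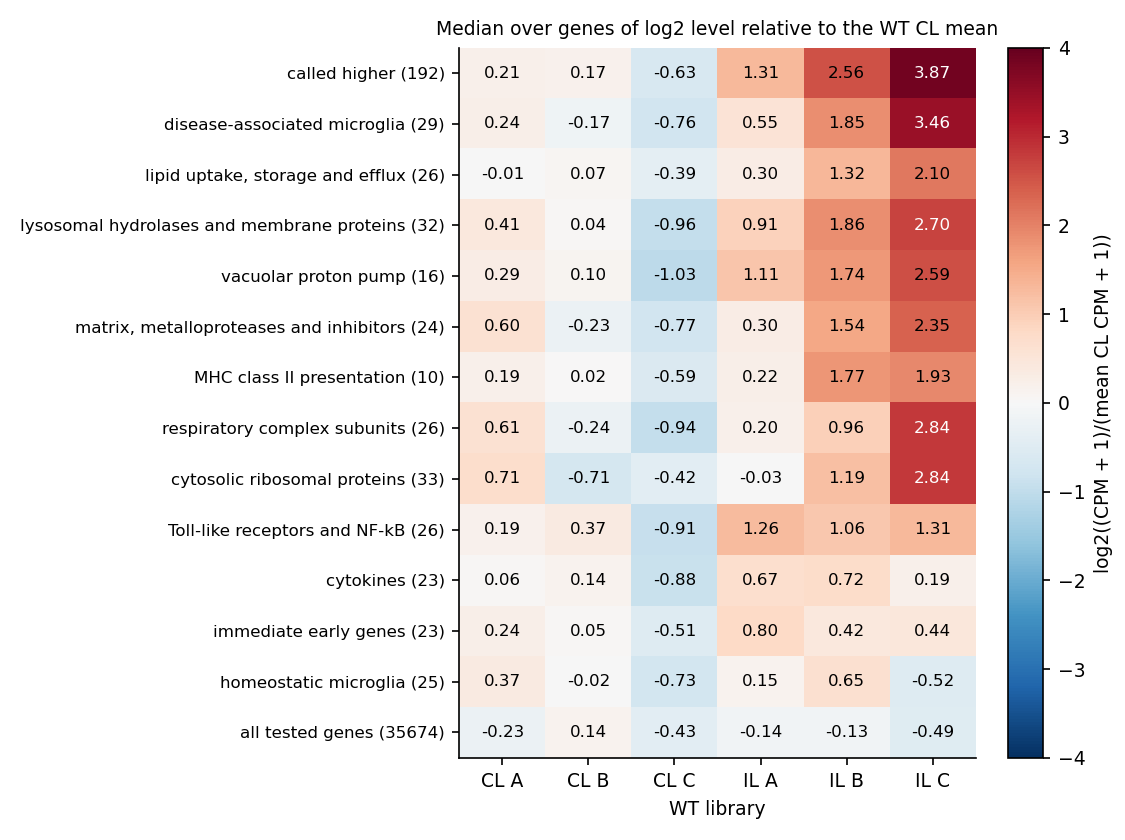
Median over the genes of a list of log2((CPM + 1)/(mean CL CPM + 1)) in each WT library, number of genes in brackets, from blue (lower) to red (higher). Disease-associated, lipid, lysosomal and ribosomal protein genes go up from IL A over B to C (0.55, 1.85 and 3.46 for the first), whereas Toll-like receptor and NF-kB genes are level across IL (1.26, 1.06 and 1.31) and all tested genes stay between -0.49 and 0.14.

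Among the 15 protein-coding genes with the largest rise, at least 10 CPM in IL and no overlap, 9 have been described with their groups. The others were mostly scarce in CL. Chil3, a secreted chitinase-like protein of alternatively activated myeloid cells, stood at 1.04, 1.799 and 0 CPM in CL and 4.78, 40.1 and 126 CPM in IL (5.77 ± 0.98, adjusted p = 0.0196). Rap2b, a small GTPase, stood at 0.895, 2.25 and 0.587 CPM in CL and 4.84, 38.6 and 108 CPM in IL, Ccnc, cyclin C, at 0, 1.05 and 0 CPM in CL and 4.95, 7.57 and 38.8 CPM in IL, and Bst1, an ectoenzyme of myeloid cells that forms cyclic ADP-ribose, at 0.671, 0.45 and 0 CPM in CL and 1.34, 6.18 and 35.5 CPM in IL. Bloc1s6, a subunit of a complex that builds lysosome-related organelles, reached 4.66, 9.98 and 21.6 CPM, and the gene model Gm6377 1.46, 6.75 and 50.2 CPM. Lyz2, the lysozyme of myeloid cells, and Mpeg1, the pore-forming protein of the phagosome, were not in this set because their groups overlapped or their folds were smaller. Both are abundant phagocyte products, chosen after their values were seen. Lyz2 stood at 59.6, 7.797 and 8.802 CPM in CL and 23.2, 935 and 3414 CPM in IL (5.83 ± 1.13, adjusted p = 0.0358). Mpeg1 stood at 176, 180.2 and 189.5 CPM in CL and 214, 1722 and 4235 CPM in IL, with the CL libraries and IL A close together and IL B and IL C far above them (3.498 ± 0.75, adjusted p = 0.0378).

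The 1 miRNA gene called was Mir29a (chromosome 6, 31062660 to 31062747), whose mature products are shown because the call is of the precursor and not of either arm. The library kit reads total RNA, and the counts do not show that either arm was present. Bases 2 to 8 of each arm, the seed, are in capitals (RefSeq, GRCm38.p6).
miR-29a-3p: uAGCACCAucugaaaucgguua
miR-29a-5p: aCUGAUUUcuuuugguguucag
Mir29a had no count in CL and 35, 120 and 95 counts in IL A, B and C (2.04, 4.91 and 5.71 CPM), at least 33.6-fold higher over the libraries together with the floor of 3 counts. Its adjusted p was 0.038, and it was called in 8 of the 17 alternative fits that tested it. Hist1h2bm, a replication-dependent histone gene, had the same pattern, with no count in CL and 1.17, 2.66 and 16.6 CPM in IL, at least 48.6-fold higher.

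The 25 genes that fell were low in IL and uneven in CL. CL C, the smallest library, was the highest CL library for 17 of them and CL A for 8. Map6, Ank3, Clstn3 and Gprin1 are known from neurons. Map6, which stabilizes microtubules, stood at 24.8, 26.5 and 82.7 CPM in CL and 5.71, 5.604 and 4.57 CPM in IL (-3.07 ± 0.65, adjusted p = 0.0375). Ank3, the ankyrin of the axon initial segment, stood at 44.2, 53.7 and 230.3 CPM in CL and 21.6, 16.2 and 4.33 CPM in IL, and Clstn3, a synaptic adhesion protein, at 33.3, 13.3 and 62.5 CPM in CL and 3.03, 3.64 and 0.481 CPM in IL, with log2 fold changes of -2.96 and -3.92. Gprin1, a protein of neurite outgrowth, stood at 8.06, 15.7 and 50.5 CPM in CL and 0.991, 1.68 and 0.601 CPM in IL. Usp13, a deubiquitinase, stood at 18.1, 16.6 and 92.7 CPM in CL and 3.55, 3.68 and 2.16 CPM in IL. For Map6, Ank3, Gprin1 and Usp13, CL C stood far above the other CL libraries.

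The other lowered genes named here have varied functions. Slc4a3, an anion exchanger that carries bicarbonate, stood at 77.9, 29.2 and 137 CPM in CL and 14.4, 6.59 and 7.69 CPM in IL (-3.09 ± 0.62, adjusted p = 0.036). Piezo2, a mechanically gated cation channel, stood at 323, 32.2 and 94.8 CPM in CL and 24.1, 8.96 and 3.97 CPM in IL (-3.61 ± 0.75, adjusted p = 0.0375), and Stra6, the retinol transporter, at 89.3, 14.8 and 36.97 CPM in CL and 6.06, 5.44 and 1.803 CPM in IL. Podxl2, a sialomucin that binds selectins, stood at 146, 14.99 and 84.2 CPM in CL and 14.2, 5.85 and 1.26 CPM in IL. Eda, a ligand of the TNF family, stood at 14.2, 6.597 and 56.3 CPM in CL and 1.22, 0.9 and 1.44 CPM in IL, and Ddo, D-aspartate oxidase, at 54.9, 14.8 and 18.2 CPM in CL and 2.21, 4.58 and 1.502 CPM in IL. Padi4, which citrullinates histones in neutrophils, stood at 22.1, 9.596 and 73.9 CPM in CL and 2.68, 2.6997 and 1.14 CPM in IL (-4.01 ± 0.82, adjusted p = 0.036). Islr, a secreted protein of stromal cells, was high in CL A alone (142, 3.75 and 1.76 CPM in CL and 1.46, 1.02 and 0.721 CPM in IL), and its log2 fold change of -5.53 rested on that library. Defb45 and Tex19.2, a defensin and a germline gene, fell from 8.503, 2.85 and 31.7 CPM and 2.24, 3.45 and 58.1 CPM to under 0.3 CPM in each IL library. Without IL C no lowered gene was called, without IL B 3 were, and without CL A 415 were.

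**Figure D4:**
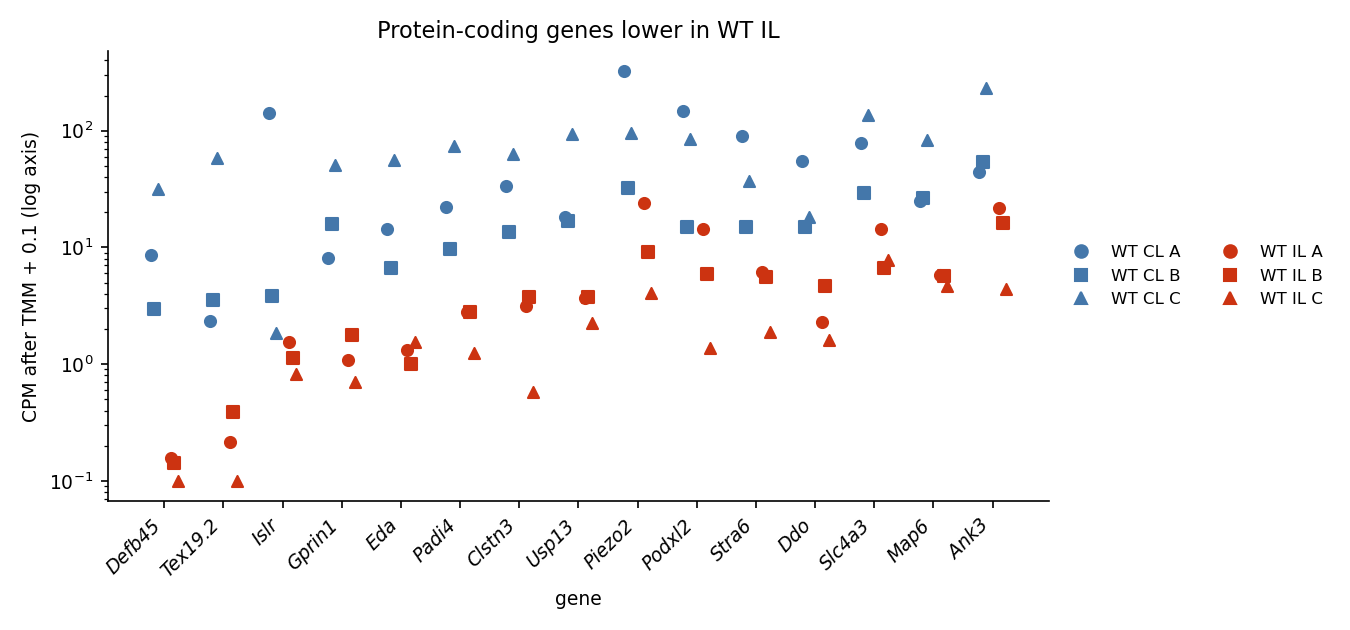
CPM after TMM scaling, with 0.1 added, on a log axis for the 15 protein-coding genes with the largest fall that had at least 10 CPM in CL and no overlap. Blue marks are CL and red marks IL, and circles, squares and triangles are libraries A, B and C; the CL libraries of a gene often lie far apart (Islr from 1.76 to 142), and every IL library lies below them.

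Markers of other cells also differed between the hemispheres. The 20 markers of infiltrating monocytes summed to 6746, 412 and 509 CPM in CL and 1161, 4382 and 8712 CPM in IL, the high CL A value being mostly that of Fn1. Of these 20, 2 were called higher, Chil3 and Ms4a4c, beside 1.66% of protein-coding genes of at least 10 CPM. Ccr2, the chemokine receptor that defines inflammatory monocytes, stood at 16.7, 10.5 and 12.3 CPM in CL and 8.16, 103 and 412 CPM in IL and missed the threshold (3.72 ± 0.89, adjusted p = 0.052). It followed the order of the disease-associated genes, IL A lying below CL, and was called without IL A (4.29, adjusted p = 0.00079). Border-associated macrophage markers summed to 2028, 1147 and 792 CPM in CL and 2152, 2285 and 3405 CPM in IL, with none of 13 called and 5 higher at an unadjusted p under 0.05 (edgeR). Over all tested genes 3398 of 35674 were higher at that level. The part of monocytes and macrophages in the raised genes was not tested.

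Neuronal and astrocyte markers mostly had negative log2 fold changes, 14 of 15 and 10 of 11. In IL A, however, the neuronal sum lay just under that of CL A, and the astrocyte sum lay above those of CL B and CL C. The 15 neuronal markers had a median of -1.52 and summed to 111, 199 and 333 CPM in CL and 109, 76.7 and 66.8 CPM in IL. The 11 astrocyte markers had a median of -1.72 and summed to 578, 166 and 179 and 181, 119.6 and 72.9 CPM. No marker of either list was called by edgeR, 4 and 5 were lower at an unadjusted p under 0.05, and DESeq2 called 4 of each lower. Over all tested genes, 3123 of 35674 were lower at an unadjusted p under 0.05 (edgeR), and DESeq2 called 2509 of 49642 lower. Map2, a neuronal cytoskeletal protein, stood at 28.6, 26.99 and 31.98 CPM in CL and 16.02, 11.8 and 10.996 CPM in IL (-1.17 ± 0.55, adjusted p = 0.259). CL C held the highest neuronal sum and was also the highest library for most of the lowered genes, and the part of neuronal RNA in their fall was not tested. Endothelial and mural markers summed to 1366, 211 and 184 CPM in CL, with CL A highest, and 284, 266 and 745 CPM in IL. For neutrophils, Padi4 was the 1 marker of 18 called and it was lower, and the markers summed to 510.2, 605 and 327 CPM in CL and 984, 833 and 602 CPM in IL. Among protein-coding genes of at least 10 CPM 0.18% were called lower.

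**Figure D5:**
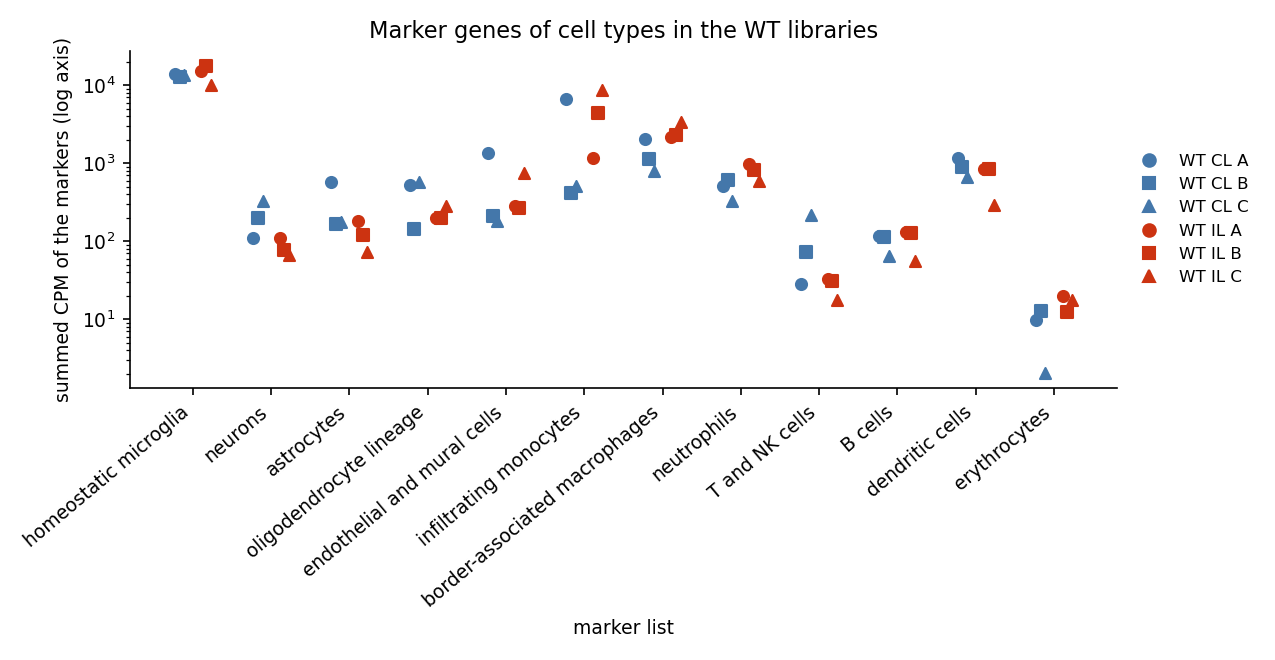
Summed CPM (log axis) of the markers of 12 cell types in each WT library; blue marks are CL and red marks IL, and circles, squares and triangles are libraries A, B and C. Homeostatic microglia markers are level (10181 to 17668 CPM), monocyte markers are high in CL A, IL B and IL C, and neuronal markers are lower in IL (66.8 to 109 CPM) than in CL (111 to 333 CPM).

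Nothing in this response was shown to be particular to WT. The genotype difference of the stroke response, cKO minus WT, was tested for all 35674 genes in the same fit, and 0 were called (0%, edgeR, lowest adjusted p = 0.99998, 1355 at an unadjusted p under 0.05). DESeq2 called 10. All 192 raised genes had a positive log2 fold change in cKO and 155 were called there too, where 2.94% of all genes were called higher, and all 25 lowered genes had a negative one, with 8 called against 0.513% of all genes. For Gpnmb the log2 fold change was 8.20 in cKO against 8.49 in WT, for Spp1 9.21 against 6.85, for Msr1 4.88 against 6.26 and for Plin2 4.47 against 4.11. P2ry12 was at 0.98 in cKO and -0.25 in WT, and the difference of 1.23 had an SE of 0.79.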

How the data were processed

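The authors deposited raw read counts per gene. By their notes, adapters, low-quality reads, ribosomal RNA and mitochondrial DNA were removed, reads of a SMARTer stranded total RNA pico V2 library were aligned to mm10 with STAR 2.5.3a in Partek 8.0, and DESeq2 was used. The release of the annotation is not given in the sources used here. The table holds 53801 genes. Genes with enough counts in the groups were kept (filterByExpr, 35674 genes), scaled by TMM and tested with edgeR 4.0.16 in R 4.3.3, all 12 libraries in 1 fit with a mean per group. The SE is the log2 fold change divided by the root of the F statistic. P-values measure the spread between these libraries in a fit that took CL and IL as unpaired. That the libraries within a group come from separate animals rests on the paper. CL and IL are hemispheres of the same operated brains, so libraries of different groups need not be from separate animals. Positions are from GENCODE vM21 (GRCm38), where 53620 IDs were found. The 51 gene lists and the other choices were made with earlier results of these data known. Genes named are the 15 protein-coding genes of largest change per direction (called, at least 10 CPM, no overlap), up to 4 called members per list or the 2 of lowest p, a few fixed genes, and examples stated as such. The test was run on simulated data first. Alternatives were DESeq2 1.42.0, voom (limma 3.58.1), other scalings and filters, fewer libraries and a replicate block. Fold bounds use 3 counts, which cover counting error only. Some genes of this rule are not reported here.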

Additional observations from a re-analysis of the deposited data

How the results depend on the processing

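Counts are given as genes higher and lower in IL, against 192 and 25. They were 1144 and 2509 with DESeq2, 66 and 15 with RLE scaling, 24 and 18 with total counts, 18 and 23 with TMM from genes of at least 50 CPM, 1155 and 402 with no filter, 406 and 663 with at least 10 counts in every library, and 0 and 0 with voom with quality weights, with the 6 WT libraries alone, with libraries thinned to the smallest, and without gene models and sensory receptors. Leaving out 1 WT library gave 5 to 977 higher and 0 to 415 lower. Leaving out IL A and CL B gave 789 and 214, and IL A and CL C, chosen after seeing the data, 1865 and 469. The cause of these differences was not tested. The genotype difference had 10 genes with DESeq2, 17 with no filter and 0 under voom and the stricter filter. All 192 and 25 genes kept their direction in every alternative that tested them, and 69 and 13 were called in at least 10 of 19. The alternatives use the same counts from which these genes were picked, so a kept direction is no separate support.

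With a replicate block on the column numbers, 1 gene was higher, 0 were lower and 0 differed between genotypes. Deviations of same-numbered libraries correlated at r = -0.13, 0.15 and -0.06 in WT and 0.21, 0.06 and 0.07 in cKO, and 4 of 6 numbers (1 of 3 in WT, 3 of 3 in cKO) matched their own number best. That hint from the data does not settle whether the numbers pair the libraries. Disease-associated genes had the largest share called among the lists in the fit reported, but DESeq2 called 22 of 32 lysosomal genes and 11 of 16 proton pump subunits against 19 of 29, and 24 of 32 lysosomal genes were called without IL A or with no filter against 21 of 29. Over all tested genes, 1144 of 49642 were higher with DESeq2, 977 of 39646 without IL A and 1155 of 49642 with no filter. The median over all genes moved from -0.31 to -1.05 under TMM from genes of at least 50 CPM, and each of 13 lists compared kept its side of that median under RLE, total counts and this scaling. P2ry12 (-0.25) was at 0.65 under voom, 0.070 with no filter, -0.87 to 0.21 with 1 WT library left out (positive without CL A, CL C or IL A) and 0.60 without IL A and CL C. Tmem119 (-0.03) was at 0.17 under voom, 0.19 with no filter and -0.33 to 0.48 with 1 left out (positive without CL A or IL C). Cx3cr1 (-1.07) was at -1.39 to 0.48 with 1 left out (positive without CL C) and 0.20 without IL A and CL C. The smallest CL library, 2091512 counts, limits what low genes can show.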
